A study of Mus musculus with 9 samples.

Results

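Aminoacyl-tRNA synthetases are the enzymes that attach each amino acid to its tRNA, and 36 of their genes were followed here in mouse ESCs before and after induction of a forced E2A homodimer. The members were taken by gene name and comprised 20 genes for cytosolic enzymes, whose symbols carry no suffix, and 16 for mitochondrial enzymes, whose symbols end in 2. All 36 were found among the 47729 genes of the table and all passed the minimum mean of 0.1 FPKM (fragments counted for each kilobase of gene and scaled to library size, so a level corrected for gene length), so no member was lost to a filter. The libraries came from an embryonic stem cell line kept in LIF/serum medium that carried a doxycycline (dox)-inducible construct for FLAG-tagged mouse E47, a splice form of E2A, tethered by a flexible linker to another copy of E47. The cells at 0 h had no dox and those at 18 h and 24 h had dox at 1 µg/ml, with 3 replicates at each time point and 9 libraries in all. The construct was present at all time points and was inserted by cassette exchange, and cells without it were not analysed here. The effect of dox itself and of time in culture cannot be told apart from that of the homodimer.

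The 9 libraries held between 22028363 and 26471569 reads on genes, and 0.600% to 0.975% of these fell on the 36 synthetases. The number of reads on a member in a library ranged from 243 for Wars2 to 32450 for Lars2. Tcf3, the gene that encodes E2A and on which reads of the construct can be counted, rose from 37.7 to 41.2 FPKM at 0 h to 93.6 to 116 FPKM in the libraries with dox. All 11 markers of ESCs had a mean of at least 1 FPKM over the libraries, and their summed level was 1381 to 2076 FPKM at 0 h, 1155 to 1825 at 18 h and 1097 to 1793 at 24 h. Of the 11, none passed the test at 18 h by limma and 3 did at 24 h, with Nanog at 0.86 (limma adjusted p = 0.00735), Dppa3 at 0.98 (0.042) and Pou5f1 at -0.58 (0.022) on the log2 scale, while 5.11% of all genes were lower and 6.52% higher. With the fit blocked by replicate number, 4 were lower and 3 higher at 18 h (all genes 10.7% and 10.8%), and 5 were lower and 3 higher at 24 h (all genes 12.5% and 13.6%). The summed level of 8 fibroblast markers was 6.04 to 14.7 FPKM and that of 8 extraembryonic endoderm markers was 4.04 to 6.02 FPKM, with Ttr at 0 in all libraries. In these bulk samples, fewer cells of a type and less RNA per cell cannot be told apart, and FPKM gives a share of the reads rather than an amount per cell.

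Each synthetase recognises a single amino acid and its tRNAs, with the exception of Eprs, a fused enzyme that charges both glutamate and proline. Cytosolic enzymes serve the ribosomes in the cytosol and mitochondrial enzymes serve those that translate mitochondrial DNA. Most are encoded by separate nuclear genes, but Gars and Kars each give rise to both a cytosolic and a mitochondrial form. Some of the cytosolic enzymes, named below, are held in a large multi-synthetase complex by the scaffold proteins Aimp1, Aimp2 and Eef1e1. Many cytosolic synthetase genes are also targets of ATF4, the transcription factor of the amino acid and integrated stress response, which binds with C/EBP partners at elements of the form TGATGNAA.

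Because 10 of the cytosolic genes moved together, the promoter windows of the members were searched for TGATGNAA on both strands. The windows run from 250 bases before to 50 bases after a gene's start in RefSeq (GRCm38.p6), and 27 of the 36 members had at least 1 window. Those not matched were Cars, Hars, Lars, Nars, Rars, Vars, Wars, Hars2 and Pars2. Cars and Nars, with the largest falls of the 10, thus could not be searched. The following stretches of 30 bases, 1 for each of 5 genes, are shown because they hold the motif and belong to those 10 genes. They were not picked by the size of the fall. The motif or its reverse complement is in capitals, 5′ to 3′ along the gene's strand, with base 1 as the first base of the transcript.
Aars, chr8:111033840-111033869, plus strand, motif from base 10: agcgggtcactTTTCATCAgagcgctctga
Gars, chr6:55037960-55037989, plus strand, motif from base -30: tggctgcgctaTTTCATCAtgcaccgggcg
Iars, chr13:49682126-49682155, plus strand, motif from base 8: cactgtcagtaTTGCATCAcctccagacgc
Tars, chr15:11399655-11399684, minus strand, motif from base -15: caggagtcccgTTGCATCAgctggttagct
Yars, chr4:129189895-129189924, plus strand, motif from base 4: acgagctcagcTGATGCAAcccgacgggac

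A gene was counted as holding a motif if any of its windows did. The motif was held by 5 of the 7 genes with a window among the 10 cytosolic genes described first below, with Mars and Sars having none. It was held by 0 of 6 other cytosolic and 0 of 14 mitochondrial members with a window. Of all 27025 genes with a window, 4.51% held it (3.97% of all 32851 windows). Counts of 0 in groups of 6 and 14 are near that share. The 10 cytosolic genes were grouped by their changes in these same data, so their count is a description only. Of the genes listed as ATF4 response genes, 7 of 21 with a window had it, among them Chac1, Asns and Trib3. CAGCTG, an E-box that E2A can bind, was held by 4 of the 27 members (Tars, Yars, Mars2 and Yars2), or 14.8% against 18.3% of all genes with a window. In Tars and Yars it shares 2 bases with the motif printed above. CACCTG, another E-box, was held by 4 (Fars2, Lars2, Tars2 and Wars2), or 14.8% against 22.6%. A match is a description of letters and not evidence of binding.

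Before induction, cytosolic synthetases were far more abundant than mitochondrial ones. The summed level at 0 h was 1914±240 FPKM (mean±s.d., n=3) for the 20 cytosolic genes and 142.1±5.80 FPKM for the mitochondrial genes without Lars2, which is treated separately because its values were erratic. With Lars2 the 16 mitochondrial genes summed to 394.7±63.8 FPKM at 0 h. Among cytosolic members the highest was Kars, for lysine, at 270, 284 and 290.0 FPKM in replicates 1, 2 and 3, followed by Nars, for asparagine, at 301, 183 and 293 FPKM, and Lars, for leucine, at 198, 134 and 201 FPKM. Kars and Nars overlapped in their libraries, so their order at 0 h is not resolved. The lowest 3 were Cars, for cysteine, at 36.9, 20.2 and 37.6 FPKM, Farsa, the alpha subunit of the phenylalanine enzyme, at 28.8, 35.4 and 28.3 FPKM, and Eprs at 30.3, 28.8 and 29.6 FPKM. These 3 also overlapped. Among mitochondrial members the highest after Lars2 were Cars2, at 18.4, 19.5 and 17.1 FPKM, and Yars2, at 17.9, 19.6 and 15.6 FPKM. The lowest were Mars2 at 2.19, 2.04 and 1.87 FPKM, Nars2 at 1.85, 1.96 and 1.93 FPKM, and Wars2 at 1.98, 1.75 and 1.89 FPKM, which did not separate from each other. The summed cytosolic level was 1317±49.1 FPKM at 18 h and 1258±67.4 FPKM at 24 h, with every library after dox (1181 to 1362 FPKM) below every 0 h library (1638 to 2075 FPKM). The summed mitochondrial level without Lars2 was 140.3±5.81 FPKM at 18 h and 136.2±4.66 FPKM at 24 h, with overlapping libraries. With Lars2 it was 280.1±102 FPKM at 18 h and 353.3±115 FPKM at 24 h.

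**Figure D1:**
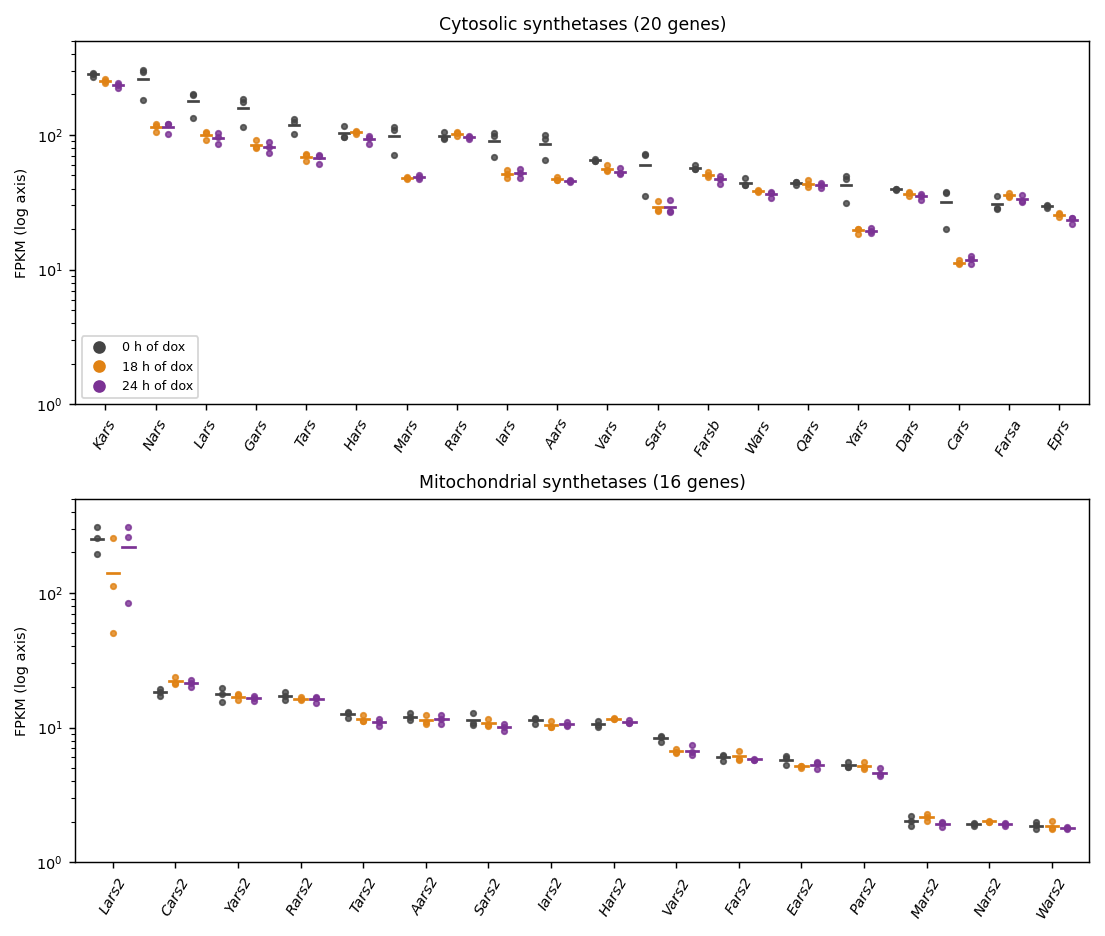
Expression of each cytosolic (top) and mitochondrial (bottom) synthetase in FPKM on a log axis, ordered by the mean at 0 h; points are libraries (n=3 per time point), short lines are means and colours give hours of dox. Cytosolic genes such as Cars and Nars drop at 18 h and 24 h, mitochondrial genes stay near their 0 h level, and Lars2 spreads from 50.2 to 309 FPKM.

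At 18 h compared with 0 h, 10 of the 20 cytosolic synthetases were downregulated and none was upregulated, at an adjusted p of at most 0.05 by limma over the 17951 genes tested. Among all genes tested 3.72% were lower and 4.27% higher by the same call. The 10 genes were Aars, Cars, Gars, Iars, Lars, Mars, Nars, Sars, Tars and Yars, and their log2 fold-changes ran from -1.42 to -0.79. Of these, 3 genes (Cars, Nars and Yars) also had a fall of at least 1 on the log2 scale, against 0.724% of all genes. At 24 h compared with 0 h, 15 of the 20 were downregulated and none was upregulated, against 5.11% lower and 6.52% higher among all genes, and the same 3 genes fell by at least 1, against 0.836% of all genes. These 15 were the same 10 genes together with Eprs, Farsb, Kars, Vars and Wars. The median log2 fold-change of the cytosolic members was -0.50 at 18 h and -0.55 at 24 h, and that of all genes tested was -0.003 and 0.004. In 16 of the 20, every library after dox was lower than every 0 h library, at 18 h as well as at 24 h, against 13.7% and 14.6% of all genes. Blocking the fit by replicate number let Eprs, Farsb and Vars pass at 18 h and Dars at 24 h, which made 13 and 16 lower and none higher, while 10.7% and 12.5% of all genes were then lower and 10.8% and 13.6% higher. Tests on the recovered reads gave similar counts. By edgeR, 10 and 15 cytosolic members were lower (all genes 4.54% and 6.05% lower, 5.78% and 7.94% higher), and by DESeq2 12 and 16 were (all genes 7.14% and 8.77% lower, 7.95% and 10.4% higher). By edgeR with the block, 15 and 17 were lower and Farsa was higher at 18 h (all genes 13.1% and 14.9% lower, 13.9% and 16.4% higher). The comparisons at 18 h and 24 h share the 0 h libraries, so they are not independent of each other.

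**Figure D2:**
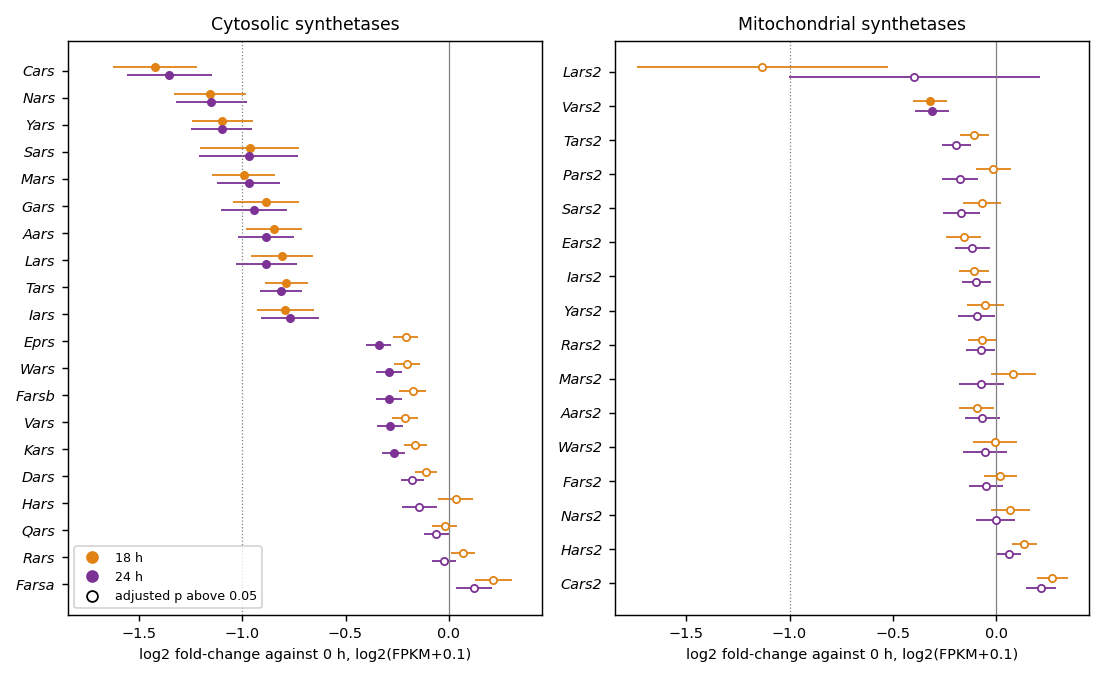
Log2 fold-change at 18 h and 24 h against 0 h for each synthetase, on the log2(FPKM+0.1) scale, ordered by the value at 24 h; bars are the standard error from limma, filled points have an adjusted p of at most 0.05 and the dotted line marks a fall of 1. The upper 10 cytosolic genes lie between -1.42 and -0.77, the other cytosolic genes between -0.34 and 0.21, and mitochondrial genes other than Lars2 between -0.32 and 0.27.

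The 3 genes with the largest falls charge cysteine, asparagine and tyrosine. Cars (ENSMUSG00000010755, chromosome 7 of GRCm38 from 143557230 to 143600090, minus strand) was at 36.9, 20.2 and 37.6 FPKM at 0 h, at 11.8, 11.2 and 10.9 FPKM at 18 h and at 12.7, 11.9 and 10.98 FPKM at 24 h. All libraries with dox were lower than the lowest 0 h library. The log2 fold-change of Cars was -1.42 at 18 h (s.e. 0.204, limma adjusted p = 0.0053) and -1.35 at 24 h (s.e. 0.204, limma adjusted p = 0.00513), that is 2.68-fold and 2.55-fold lower. Nars (ENSMUSG00000024587, chromosome 18 from 64499647 to 64516652, minus strand) was at 301, 183 and 293 FPKM at 0 h, at 119, 117 and 104 FPKM at 18 h and at 121, 120.0 and 102 FPKM at 24 h. It moved from a level that overlapped with that of Kars to one close to that of Hars and Rars. The log2 fold-change of Nars was -1.16 at 18 h (s.e. 0.172, limma adjusted p = 0.00599) and -1.15 at 24 h (s.e. 0.172, limma adjusted p = 0.00507). Yars (ENSMUSG00000028811, chromosome 4 from 129189760 to 129219607, plus strand) was at 46.7, 31.4 and 49.98 FPKM at 0 h, at 20.1, 20.2 and 18.4 FPKM at 18 h and at 20.4, 19.4 and 18.7 FPKM at 24 h. The groups did not overlap, and Yars fell 2.14-fold at both times (log2 fold-change -1.10, s.e. 0.148), for which the limma adjusted p values were 0.00425 and 0.00302.

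Another 4 genes of enzymes that work outside the multi-synthetase complex fell by less than 1 on the log2 scale. Sars, for serine (ENSMUSG00000068739, chromosome 3 from 108424865 to 108445209, minus strand), was at 70.9, 35.5 and 72.3 FPKM at 0 h, at 32.3, 27.5 and 27.6 FPKM at 18 h and at 33.0, 27.0 and 27.1 FPKM at 24 h. Replicate 2 at 0 h was only slightly above the libraries with dox, and the spread at 0 h was the largest of the 10 genes relative to the mean. The log2 fold-change of Sars was -0.96 at 18 h (s.e. 0.24, limma adjusted p = 0.0422) and -0.97 at 24 h (limma adjusted p = 0.0337), and without a filter on FPKM the adjusted p was 0.0743 and 0.0599. Gars, for glycine (ENSMUSG00000029777, chromosome 6 from 55038007 to 55079500, plus strand), was at 176, 115 and 185 FPKM at 0 h, at 90.9, 81.8 and 80.2 FPKM at 18 h and at 88.1, 81.6 and 73.5 FPKM at 24 h. Its log2 fold-change was -0.88 at 18 h (s.e. 0.161, limma adjusted p = 0.0136) and -0.94 at 24 h (limma adjusted p = 0.00854). All libraries of Gars with dox were below all 0 h libraries. Aars, for alanine (ENSMUSG00000031960, chromosome 8 from 111033144 to 111057664, plus strand), was at 92.9, 64.8 and 100.4 FPKM at 0 h and between 45.01 and 48.3 FPKM in all 6 libraries with dox. The libraries with dox were thus tightly grouped below those without, and the change on the log2 scale was -0.85 at 18 h (s.e. 0.135, limma adjusted p = 0.00827) and -0.89 at 24 h (limma adjusted p = 0.00536). Tars, for threonine (ENSMUSG00000022241, chromosome 15 from 11382301 to 11399665, minus strand), was at 131, 101 and 125 FPKM at 0 h, at 70.4, 72.1 and 63.6 FPKM at 18 h and at 70.04, 71.3 and 61.2 FPKM at 24 h. It had the smallest standard error of the 10 genes, and its log2 fold-change was -0.79 at 18 h (s.e. 0.103, limma adjusted p = 0.00366) and -0.81 at 24 h (limma adjusted p = 0.00229).

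Of the 10 genes, 3 encode enzymes of the multi-synthetase complex. Mars, for methionine (ENSMUSG00000040354, chromosome 10 from 127296221 to 127311786, minus strand), was at 108, 70.4 and 115 FPKM at 0 h, at 48.3, 48.8 and 46.9 FPKM at 18 h and at 48.8, 50.2 and 47.5 FPKM at 24 h. The groups were well separated, and the log2 fold-change was -0.99 at 18 h (s.e. 0.153, limma adjusted p = 0.00688) and -0.97 at 24 h (limma adjusted p = 0.00611). Lars (ENSMUSG00000024493, chromosome 18 from 42202298 to 42262194, minus strand) was at 198, 134 and 201 FPKM at 0 h, at 104, 105 and 91.1 FPKM at 18 h and at 96.2, 103 and 86.0 FPKM at 24 h. Its libraries with dox all lay below the 0 h libraries, and the log2 fold-change was -0.81 at 18 h (s.e. 0.149, limma adjusted p = 0.0142) and -0.88 at 24 h (limma adjusted p = 0.0081). Iars, for isoleucine (ENSMUSG00000037851, chromosome 13 from 49682100 to 49734267, plus strand), was at 98.0, 68.8 and 103.5 FPKM at 0 h, at 51.3, 55.0 and 47.7 FPKM at 18 h and at 52.2, 56.0 and 48.2 FPKM at 24 h. It had the smallest change of the 10 at 24 h, and the fitted values were -0.79 at 18 h (s.e. 0.14, limma adjusted p = 0.0121) and -0.77 at 24 h (limma adjusted p = 0.0108). Mars overlaps Ddit3 and Yars overlaps C77080 on the opposite strand, and Aars overlaps Exosc6 on the same strand. How the counting treated strand and shared reads was not given in the sources used here, so the share of such reads in these values is not known.

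The 5 genes that passed at 24 h but not at 18 h changed by much less. Eprs was at 30.3, 28.8 and 29.6 FPKM at 0 h, at 25.7, 26.2 and 24.8 FPKM at 18 h and at 24.2, 24.3 and 21.6 FPKM at 24 h. The groups did not overlap, and the log2 fold-change was -0.34 at 24 h (s.e. 0.0599, limma adjusted p = 0.00952) and -0.21 at 18 h (limma adjusted p = 0.065, 0.0221 with the block). Kars was at 270, 284 and 290.0 FPKM at 0 h, at 260, 250 and 244 FPKM at 18 h and at 242, 237 and 223 FPKM at 24 h. It was the most abundant cytosolic member in all libraries with dox, and its log2 fold-change was -0.27 at 24 h (s.e. 0.0561, limma adjusted p = 0.0189), but -0.14 with quantile normalization (limma adjusted p = 0.0979). Wars, for tryptophan, was at 42.5, 42.7 and 47.8 FPKM at 0 h, at 38.7, 38.9 and 37.9 FPKM at 18 h and at 36.9, 37.6 and 34.1 FPKM at 24 h. Its log2 fold-change was -0.29 at 24 h (s.e. 0.0628, limma adjusted p = 0.0207), with no overlap of the libraries, and -0.22 with quantile normalization (limma adjusted p = 0.0657). Farsb, the beta subunit of the phenylalanine enzyme, was at 59.6, 56.3 and 55.6 FPKM at 0 h, at 52.9, 50.1 and 48.8 FPKM at 18 h and at 49.8, 47.3 and 43.3 FPKM at 24 h. It fell by 0.29 on the log2 scale at 24 h (s.e. 0.0644, limma adjusted p = 0.0227), while the value at 18 h was -0.18 (limma adjusted p = 0.129, 0.0171 with the block). Vars, for valine, was at 64.5, 64.0 and 66.5 FPKM at 0 h, at 60.01, 54.7 and 53.5 FPKM at 18 h and at 57.2, 51.4 and 51.7 FPKM at 24 h. Its log2 fold-change was -0.28 at 24 h (s.e. 0.0632, limma adjusted p = 0.0226) and -0.21 at 18 h (limma adjusted p = 0.0701, 0.0211 with the block), and with quantile normalization it was -0.18 at 24 h (limma adjusted p = 0.0727). A fit of only the 0 h and 24 h libraries gave adjusted p values of 0.0565 for Kars, 0.063 for Wars and 0.0597 for Farsb.

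The remaining 5 cytosolic members passed by limma without the block at neither time. Dars, for aspartate, was at 39.6, 39.9 and 39.1 FPKM at 0 h, at 37.5, 35.5 and 36.8 FPKM at 18 h and at 36.7, 35.3 and 33.0 FPKM at 24 h. Its libraries with dox all lay below those at 0 h, but the log2 fold-change was only -0.18 at 24 h (limma adjusted p = 0.0662, 0.0245 with the block). Farsa was at 28.8, 35.4 and 28.3 FPKM at 0 h, at 36.9, 35.2 and 34.8 FPKM at 18 h and at 35.9, 31.9 and 32.5 FPKM at 24 h, which overlapped, and the value after 18 h was 0.21 (limma adjusted p = 0.17). Hars, for histidine, was at 96.8, 116 and 96.0 FPKM at 0 h, at 106, 108 and 101 FPKM at 18 h and at 95.2, 98.1 and 85.8 FPKM at 24 h. Rars, for arginine, was at 93.4, 104 and 94.2 FPKM at 0 h, at 105, 98.5 and 103 FPKM at 18 h and at 96.2, 97.6 and 93.5 FPKM at 24 h. Qars, for glutamine, was at 44.8, 42.7 and 44.4 FPKM at 0 h, at 46.1, 41.0 and 43.0 FPKM at 18 h and at 44.2, 40.1 and 42.2 FPKM at 24 h. For Qars the 95% interval of the log2 fold-change at 24 h was -0.20 to 0.08, and for Rars it was -0.15 to 0.11, so a fall of the size seen in the 10 genes above lies outside both intervals.

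No change between 18 h and 24 h was detected for the synthetases by these tests. None of the 36 members passed, and none had an unadjusted p under 0.05 or passed with the block, edgeR, edgeR with the block or DESeq2, whereas 5.59% of all genes had such an unadjusted p. Among all genes, 0.00557% were lower and 0.0167% higher by limma, 0.0111% and 0.0334% with the block, 0% and 0% by edgeR, 0.292% and 0.817% by edgeR with the block and 0.0388% and 0.256% by DESeq2. The median log2 fold-change was -0.06 for the cytosolic and -0.05 for the mitochondrial members. The values for the 10 genes above lay near 0, for example 0.07 for Cars (95% interval -0.39 to 0.53) and -0.003 for Yars (95% interval -0.34 to 0.33). The 8 cytosolic members not linked to ATF4 all had a value below 0, between -0.18 and -0.04, without any passing. In 5 cytosolic (Eprs, Hars, Kars, Rars and Wars) and 3 mitochondrial members (Hars2, Mars2 and Nars2), every 24 h library was lower than every 18 h library, against 6.04% of all genes. In no member was every 24 h library higher, against 1223 of the 17951 genes tested.

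Replicate 2 at 0 h stood apart for the genes that fell the most. In the 10 genes its level was 49.5% (Sars) to 79.2% (Tars) of the mean of replicates 1 and 3, whereas in the other 10 cytosolic members it was 94.5% (Wars) to 124% (Farsa). Without that library, the 10 genes were again lower at 18 h and Farsa was higher, and the 15 genes were again lower at 24 h. The log2 fold-changes were then larger in size, with Cars at -1.72 and -1.65 and Sars at -1.30 and -1.31 at 18 h and 24 h. The level within replicate 2 still fell after dox, as for Mars at 70.4, 48.8 and 50.2 FPKM and for Cars at 20.2, 11.2 and 11.9 FPKM, in order of time. Aars, Cars, Mars, Nars, Tars and Yars passed at both times in each of the 9 fits that left out a library. Iars did not pass at 18 h without 18 h replicate 3 (limma adjusted p = 0.0565) or at 24 h without 24 h replicate 3 (0.0501). At 18 h, Gars had an adjusted p of 0.0535 without 0 h replicate 1, 0.0563 without 18 h replicate 2 and 0.0604 without 18 h replicate 3, and Lars had 0.0549 without 0 h replicate 1 and 0.063 without 18 h replicate 3. Both had 0.0533 in a fit without all 24 h libraries. Sars passed at 18 h in 1 of the 9 fits, the one without 0 h replicate 2, and at 24 h in 2 of them, without 0 h replicate 2 and without 18 h replicate 1, and its adjusted p otherwise ran from 0.0541 to 0.133 and from 0.0502 to 0.112. Among the small changes at 24 h, Eprs passed in all 9 fits, and Wars in all but that without 24 h replicate 3 (0.0787). Kars had an adjusted p of 0.0514 without 0 h replicate 3, 0.061 without 24 h replicate 2 and 0.0755 without 24 h replicate 3. Farsb had 0.0799 without 0 h replicate 1, 0.0692 without 24 h replicate 2 and 0.0795 without 24 h replicate 3. For Vars the values were 0.0643 and 0.0575 without 0 h replicates 1 and 3, and 0.0865 and 0.0873 without 24 h replicates 2 and 3. In all, 6 cytosolic members were lower at 18 h without 18 h replicate 3 and 9 at 24 h without 24 h replicate 3. The share of all genes called in the fits without a library is not given here. A change in these counts therefore cannot be told apart from a change in calls over all genes.

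**Figure D3:**
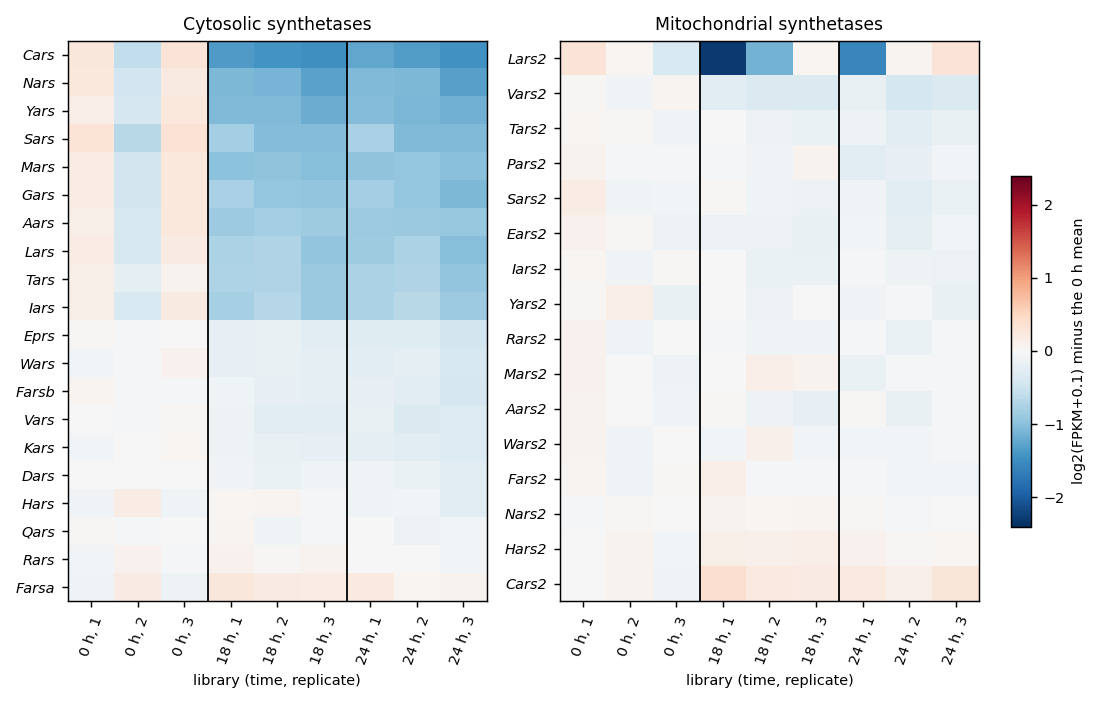
Difference of log2(FPKM+0.1) from the 0 h mean for each synthetase in each library, in rows ordered by the log2 fold-change at 24 h; blue is lower and red is higher than the 0 h mean. The upper 10 cytosolic rows are lower in all 6 libraries with dox and, less so, in 0 h replicate 2, and Lars2 varies between replicates of a time point.

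Mitochondrial synthetases changed little. At both times 1 of the 16 was downregulated by limma, Vars2, and none was upregulated, against 3.72% lower and 4.27% higher among all genes at 18 h and, after 24 h, 5.11% lower and 6.52% higher. The count of mitochondrial members is near the background. Their median log2 fold-change was -0.06 at 18 h and -0.09 at 24 h. Vars2 (ENSMUSG00000038838, chromosome 17 from 35655634 to 35667592, minus strand) was at 8.45, 7.87 and 8.68 FPKM at 0 h, at 6.92, 6.50 and 6.55 FPKM at 18 h and at 7.37, 6.22 and 6.53 FPKM at 24 h. The libraries did not overlap, and the log2 fold-change was -0.32 at 18 h (s.e. 0.081, limma adjusted p = 0.0447) and -0.31 at 24 h (limma adjusted p = 0.0396), and without a filter on FPKM the adjusted p was 0.0616 and 0.0531. Of the 9 fits that left out a library, Vars2 passed at each time in 2, without 0 h replicate 2 and without 24 h replicate 1, and its adjusted p in the others was 0.0549 to 0.14 at 18 h and 0.0507 to 0.135 at 24 h. Cars2 (ENSMUSG00000056228, chromosome 8 from 11513977 to 11550783, minus strand) was at 18.4, 19.5 and 17.1 FPKM at 0 h, at 23.9, 21.5 and 21.1 FPKM at 18 h and at 21.4, 20.02 and 22.4 FPKM at 24 h. All its libraries with dox were higher than those without, as was the case for 14.4% of all genes after 18 h and 16.7% after 24 h. Its fitted change on the log2 scale was 0.27 at 18 h (s.e. 0.0745, limma adjusted p = 0.0564, 0.0343 with the block, 0.0468 without 0 h replicate 2) and 0.22 at 24 h (limma adjusted p = 0.0932, 0.061 with the block). Cars2 overlaps Naxd on the opposite strand. Tars2 was at 12.9, 12.8 and 11.8 FPKM at 0 h, at 12.4, 11.3 and 11.2 FPKM at 18 h and at 11.5, 10.3 and 10.97 FPKM at 24 h, and its log2 fold-change of -0.19 at 24 h passed only with the block (limma adjusted p = 0.111, 0.0313 with the block). The block therefore gave 1 lower and 1 higher mitochondrial member at 18 h and 2 lower at 24 h, against 10.7% and 12.5% lower and 10.8% and 13.6% higher among all genes, so these counts do not exceed the background.

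The other mitochondrial members were within the spread of their replicates or close to it. Sars2 was at 12.8, 10.5 and 10.7 FPKM at 0 h, at 11.5, 10.5 and 10.2 FPKM at 18 h and at 10.6, 9.42 and 10.1 FPKM at 24 h. Pars2 was at 5.56, 5.08 and 5.08 FPKM at 0 h, at 5.07, 4.91 and 5.58 FPKM at 18 h and at 4.38, 4.53 and 4.98 FPKM at 24 h, so that its 24 h libraries alone lay below all those at 0 h (log2 fold-change -0.18, limma adjusted p = 0.219). Fars2, for phenylalanine, stayed between 5.65 and 6.69 FPKM in all libraries, and Yars2 between 15.6 and 19.6 FPKM. Neither showed a separation of time points. The least abundant members also changed little, although Nars2 was higher in its 18 h libraries than in its other libraries and Mars2 was lower in its 24 h than in its 18 h libraries. Nars2 was at 2.03, 1.99 and 2.01 FPKM at 18 h and at 1.94, 1.87 and 1.91 FPKM at 24 h, Mars2 at 2.03, 2.29 and 2.15 FPKM and then at 1.82, 1.999 and 1.97 FPKM, and Wars2 at 1.79, 2.04 and 1.78 FPKM and then at 1.79, 1.78 and 1.82 FPKM. The 95% interval of the log2 fold-change at 24 h was -0.21 to 0.21 for Nars2 and -0.30 to 0.18 for Wars2. Aars2, Ears2, Hars2, Iars2 and Rars2 also did not pass, with values from -0.16 (Ears2) to 0.14 (Hars2) at 18 h and from -0.12 (Ears2) to 0.06 (Hars2) at 24 h. All 18 h libraries of Hars2 were higher, and all those of Ears2 lower, than their 0 h libraries. Of the 16 mitochondrial members, 2 were lower and 3 higher in every library at 18 h, against 13.7% and 14.4% of all genes. At 24 h 3 were lower and 1 higher, against 14.6% and 16.7%. Hars and Hars2 lie head to head and overlap at their starts on opposite strands.

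Lars2, the mitochondrial leucine enzyme (ENSMUSG00000035202, chromosome 9 from 123366927 to 123462666, plus strand), had the largest spread between replicates of all members. It was at 309, 255 and 193 FPKM at 0 h, at 50.2, 113 and 257 FPKM at 18 h and at 83.5, 261 and 307 FPKM at 24 h. The groups overlapped widely, and its mean at 0 h was 252.6 FPKM, where the next mitochondrial member, Cars2, had 18.3 FPKM. The log2 fold-change was -1.13 at 18 h (s.e. 0.608, limma adjusted p = 0.282, 0.163 with the block) and -0.40 at 24 h (limma adjusted p = 0.711), and without 24 h replicate 1 the latter turned to 0.19. By edgeR with the block it was called lower at 18 h (-1.23, adjusted p = 0.0108), which no other test did. The 4 non-coding loci Gm15564, Mir6236, Gm42418 and Gm26917, chosen after their values were seen, shared part of this pattern. Gm15564, an antisense locus on chromosome 16, was at 75.2, 65.0 and 46.5 FPKM at 0 h, at 11.9, 27.2 and 66.8 FPKM at 18 h and at 19.8, 66.1 and 78.2 FPKM at 24 h. Mir6236, a miRNA locus on chromosome 9 from 110281287 to 110281409 and therefore outside Lars2, was at 1648, 1171 and 913 FPKM at 0 h, at 197, 431 and 1288 FPKM at 18 h and at 330, 1191 and 1497 FPKM at 24 h. The lincRNA loci Gm42418 and Gm26917 on chromosome 17 ran from 213 to 559 FPKM and from 30.5 to 77.7 FPKM. Each of the 4 loci was lower in replicate 1 than in replicates 2 and 3 at 18 h and at 24 h, as Lars2 was, whereas Lars was at 104, 105 and 91.1 FPKM and at 96.2, 103 and 86.0 FPKM in those libraries. The part of these loci in the reads counted on Lars2 was not tested.

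**Figure D4:**
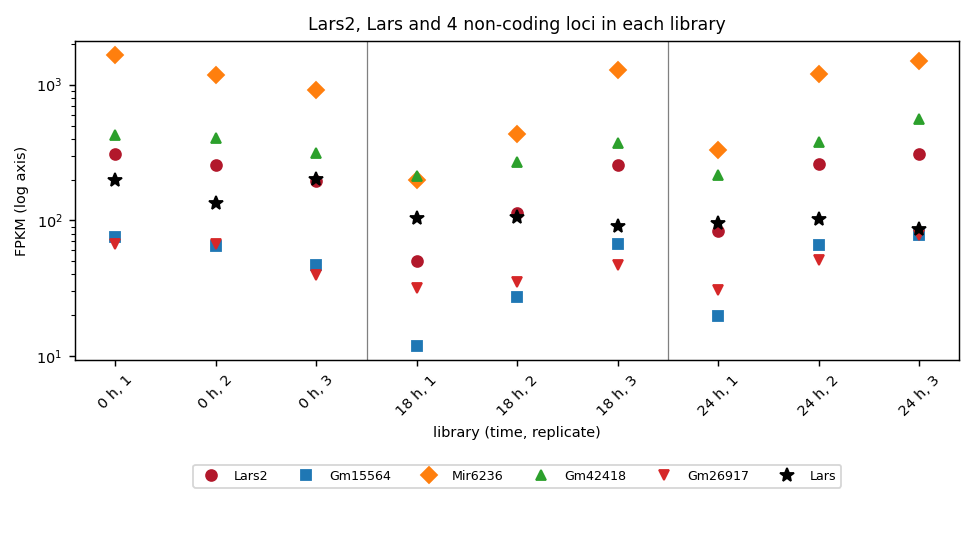
Expression in FPKM on a log axis of Lars2, of its cytosolic counterpart Lars and of 4 non-coding loci in each of the 9 libraries (time and replicate). Lars2 and the 4 loci are low together in replicate 1 at 18 h and 24 h, where Lars is not.

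The ratio of cytosolic to mitochondrial FPKM for a given amino acid was lower after dox in the pairs whose cytosolic gene fell the most. For cysteine, Cars to Cars2 was 1.75±0.623 at 0 h, 0.51±0.0151 at 18 h and 0.56±0.0595 at 24 h (mean±s.d., n=3), so that the mitochondrial gene was the more expressed of the pair after dox. For asparagine, Nars to Nars2 was 136±37.2 at 0 h, 56.5±3.94 at 18 h and 59.9±5.62 at 24 h, which was the widest ratio of the 17 pairs at each time point. The methionine pair went from 48.4±13.4 to 22.3±1.29 and 25.4±1.37, and the tyrosine pair from 2.48±0.809 to 1.16±0.106 and 1.19±0.0513. In contrast, the arginine pair was at 5.71±0.772, 6.25±0.0821 and 5.90±0.429, and the valine pair at 7.81±0.283, 8.43±0.249 and 7.98±0.258. The ratio for leucine ranged from 0.28 to 2.06 with Lars2 and is not informative.

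The cytosolic members were also counted by known attributes. Of the 12 members linked to ATF4 in general knowledge of the pathway, 10 were lower at 18 h and 12 at 24 h, against 3.72% and 5.11% of all genes, with a median log2 fold-change of -0.86 and -0.91. Of the other 8, none was lower at 18 h and 3 (Farsb, Kars and Vars) at 24 h, with a median of -0.07 and -0.16. The list of linked members was written with earlier results of these data known and is not independent support. Members of the multi-synthetase complex (Dars, Eprs, Iars, Kars, Lars, Mars, Qars and Rars) were lower in 3 of 8 cases at 18 h and 5 of 8 at 24 h, with medians of -0.19 and -0.30, and members outside it in 7 of 12 and 10 of 12, with medians of -0.82 and -0.85. By structural class, 5 of 9 class I and 5 of 10 class II enzymes were lower at 18 h and 7 of 9 and 7 of 10 at 24 h. The fused enzyme Eprs, lower at 24 h, was counted in neither class. The scaffold proteins Aimp1, Aimp2 and Eef1e1 did not pass by limma at either time. Eef1e1 had the largest values, -0.30 at 18 h (limma adjusted p = 0.103, 0.00788 with the block) and -0.36 at 24 h (limma adjusted p = 0.0505, 0.00346 with the block), and with the block Aimp1 passed as lower at 24 h (0.0202).

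Genes that work beside the synthetases were mostly without a call. Among other charging and proofreading genes, Xpot was lower at both times. Xpot, the exporter of tRNA from the nucleus, was at 42.9, 37.1 and 43.4 FPKM at 0 h, at 30.2, 30.5 and 27.0 FPKM at 18 h and at 29.6, 28.6 and 26.1 FPKM at 24 h. Its changes on the log2 scale were -0.49 (limma adjusted p = 0.01) and -0.55 (limma adjusted p = 0.00507). Dtd1, which removes D-amino acids from tRNA, was at -0.34 at 24 h (limma adjusted p = 0.0905) and passed with the block (0.00707) and by DESeq2 (0.0411). At 18 h Dtd1 also passed with the block (0.0146). Dtd2 was lower with the block at both times (0.0174 and 0.0343) and by DESeq2 at 18 h (0.0322). Of the 13 genes in this list, 2 were lower at each time without the block and 4 with it. The share of all genes lower with the block was 10.7% and 12.5%. None of the 5 cytosolic elongation factor genes passed by limma without the block. At 18 h, Eef1a1, which brings charged tRNA to the ribosome, had a value of -0.19 (limma adjusted p = 0.315) and was lower with the block (0.0473) and by edgeR with the block (0.00163), and Eef2, the translocase, had a value of -0.18 (limma adjusted p = 0.23) and was lower by edgeR with the block (0.00912). At 24 h the values of the 5 genes lay between -0.14 and -0.04, and Eef2 was lower by edgeR with the block (0.0217). Of 8 mitochondrial translation factors, Mrrf, a ribosome recycling factor, was lower at 18 h (-0.34, limma adjusted p = 0.0394) and Mtrf1l, a release factor, was higher at 18 h and 24 h (0.45 and 0.72, limma adjusted p = 0.0428 and 0.00594). With the block Mrrf was lower at 24 h too (0.0317), Tsfm, an elongation factor, was lower at both times (0.0151 and 0.00922), Gfm2, which acts in ribosome recycling, was lower at 24 h (0.0312) and Mtif2, an initiation factor, was higher at 18 h (0.0339), so that 2 and 3 of the 8 were lower and 2 and 1 higher, while 10.7% and 12.5% of all genes were lower and 10.8% and 13.6% higher with the block.

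The wider ATF4 response moved in the same direction as the 10 synthetases. Of 21 response genes tested (Slc7a11 was below the minimum FPKM), 14 were lower and 1, Ddit4, was higher at each time, against 3.72% and 5.11% lower and 4.27% and 6.52% higher among all genes. Of the lower genes 13 were shared, while Nupr1 passed only at 18 h and Sesn2 only at 24 h. With the block 16 and 17 were lower, against 10.7% and 12.5% of all genes. The median log2 fold-change was -1.15 and -1.21. Atf4, named here as the regulator after its values were seen, was at 267, 160 and 258 FPKM at 0 h, at 91.4, 94.4 and 91.4 FPKM at 18 h and at 98.3, 95.1 and 95.2 FPKM at 24 h, and the fitted changes were -1.27 (limma adjusted p = 0.00331) and -1.21 (limma adjusted p = 0.00302). Chac1, a glutathione-degrading enzyme and a marker of the response, had the largest change and was at 35.4, 5.17 and 36.7 FPKM at 0 h and between 0.884 and 1.66 FPKM after dox. Trib3, a pseudokinase, was at 32.5, 8.59 and 37.1 FPKM at 0 h and between 2.59 and 4.48 FPKM after dox. Slc7a1, a transporter of cationic amino acids, was at 12.9, 6.52 and 14.6 FPKM at 0 h and between 2.63 and 3.28 FPKM after dox. In all 4 of these genes replicate 2 at 0 h was lower than the other 0 h libraries, as it was for the 10 synthetases, and still above every library with dox. Among the 21 response genes tested it was the lowest 0 h library in all 21, and it was above every library with dox in 13. It was not in Atf3, Atf5, Cebpb, Ddit3, Nupr1, Pycr1 and Sesn2, nor in Ddit4, which rose. The part of this difference among 0 h cultures in the changes of the synthetases was not tested beyond the fits without that library.

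**Figure D5:**
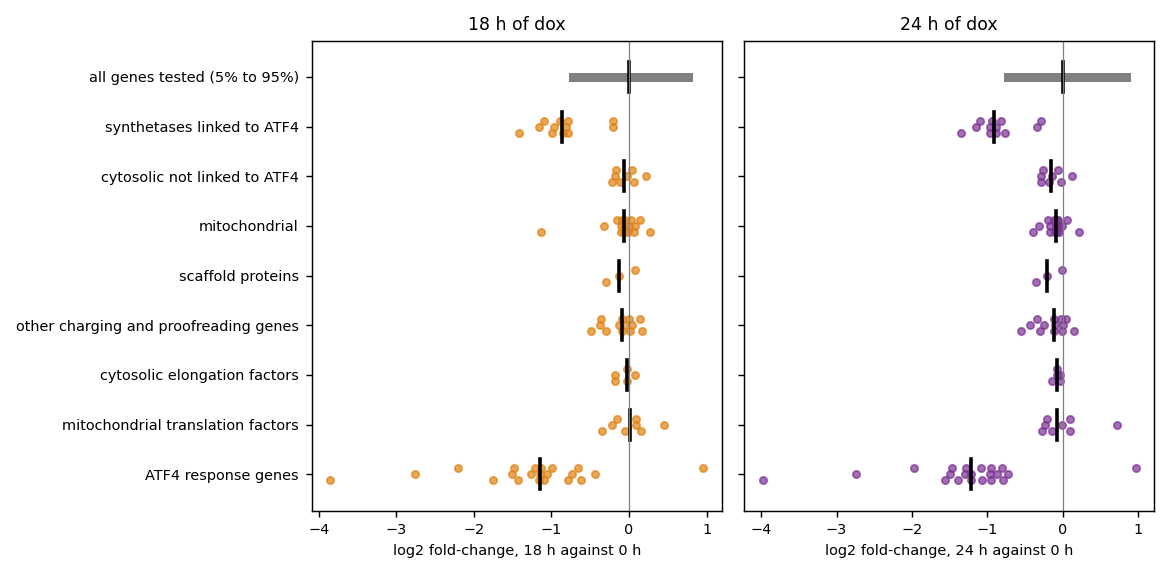
Log2 fold-change of each gene in 8 lists at 18 h (left) and 24 h (right) against 0 h; black lines are list medians and the grey bar spans the central 90% of all 17951 genes tested. Synthetases linked to ATF4 (median -0.86 and -0.91) and ATF4 response genes (median -1.15 and -1.21) lie to the left. The medians of the other lists lie nearer 0, with that of the scaffold proteins at -0.13 and -0.21.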

How the data were processed

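RNA-seq libraries of mouse ESCs without dox and after 18 h or 24 h of dox (3 replicates each) were used, with time points and replicate numbers from the sample titles. The treatment text of the labels names other times. The authors made stranded libraries of polyadenylated RNA, trimmed reads with cutadapt 1.9, aligned them with STAR to GRCm38 and tested counts with edgeR 3.16.5. The FPKM values deposited by the authors cover 47729 genes. A filtered table that the authors deposited gives for 19210 genes a signal, which is a count divided by a scaled library size, and 100% of values per library came out as whole reads (tolerance 0.05 reads). The authors' fold-changes, p-values and mean columns in that table were not used. Duplicated libraries were looked for and not found.

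Expression was tested with limma 3.58.1 in R 4.3.3 (lmFit, then eBayes with trend), two-sided, on log2(FPKM+0.1). All 9 libraries entered the fit without a block, and the 17951 genes whose mean FPKM reached 0.1 were kept. Adjusted p values are Benjamini–Hochberg values over all of these genes, and such a fold-change understates that of low genes. The script was tested on simulated data. The main tests used the deposited FPKM, and the recovered reads were used for alternatives. Replicate numbers paired the libraries: deviations from the time point mean correlated at r = 0.211 to 0.548 for the 9 same-numbered pairs and at -0.399 to 0.11 for the 18 others, across 11893 genes, and the legends speak of biological experiments. Replicates are called biological by the study. An exact permutation test of 3 against 3 cannot go below p = 0.1, so none was run. Alternatives were other pseudocounts (1 and 0.01), filters, normalizations and fits, each library left out, and edgeR 4.0.16 and DESeq2 1.42.0 on the recovered reads. Named with values in each library were the changed members with the largest fold-changes, the 3 most and 3 least abundant of each group, members whose call or direction turned under an alternative, and up to 3 genes of each other list. Where a range is given for such a member instead, it covers all libraries. The members and lists were chosen with earlier results of these data known. Coordinates are from GENCODE M21, and promoter windows from RefSeq. Tables were handled with Python 3.11.15, pandas 2.3.3 and matplotlib 3.10.9. Some items of a gene list and of a promoter are not reported here.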

Additional observations from a re-analysis of the deposited data

How the results depend on the processing

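The count of cytosolic synthetases changed at 18 h was 10, and it was 16 by edgeR with the replicate block on recovered reads (15 lower and Farsa higher) and 3 when a change of at least 1 on the log2 scale was required. At 24 h the count was 15, and 3 under that requirement. Leaving out 1 library gave 6 (without 18 h replicate 3) to 11 at 18 h and 9 (without 24 h replicate 3) to 15 at 24 h. For mitochondrial synthetases the count of 1 at each time became 0 at both times without a filter on FPKM, when the third time point was left out of the fit and when a change of at least 1 was required. At 18 h it became 2 with genes kept from a mean of 1 FPKM, with quantile normalization, the replicate block and DESeq2, and 3 by edgeR with the block. At 24 h it became 2 with the replicate block and 4 by edgeR with the block. Leaving out 1 library gave 0 to 2 at 18 h and 0 to 1 at 24 h, and the mitochondrial median at 18 h then ranged from -0.084 to 0.0019 (without 0 h replicate 1). In limma the block changed no calls of members other than those given above. By edgeR with the block Kars, Wars and Lars2 were also lower at 18 h, and at 24 h Hars and Sars2 were also lower and Cars2 higher. Among all genes the block in limma raised the share called lower from 3.72% to 10.7% at 18 h and from 5.11% to 12.5% at 24 h. The share was 13.1% and 14.9% by edgeR with the block and 7.14% and 8.77% by DESeq2. The mitochondrial median without Lars2, an alternative chosen after seeing the data, was -0.05 at 18 h and -0.08 at 24 h. Among 18 h calls, those of Gars, Lars, Sars and Vars2 were lost when the third time point was left out, and at 24 h those of Farsb, Kars, Sars, Vars2 and Wars. Quantile normalization lost Sars at 18 h and Kars, Vars and Wars at 24 h, and no filter lost Sars and Vars2 at both. The causes were not tested, except that fewer libraries or more genes enter these fits. Shares of all genes are given only for limma and edgeR with and without the block and for DESeq2. Counts of members under the other settings therefore have no background beside them. Values near 0 changed sign in members without a call: with quantile normalization Qars was 0.027 at 18 h and 0.012 at 24 h, and Rars was 0.106 at 24 h. With 1 library left out, the 18 h value ranged from -0.015 to 0.12 for Hars, -0.065 to 0.018 for Qars, -0.046 to 0.057 for Fars2, -0.066 to 0.029 for Pars2, -0.12 to 0.019 for Sars2, -0.066 to 0.034 for Wars2 and -0.14 to 0.024 for Yars2. The 24 h value ranged from -0.051 to 0.029 for Rars, -0.75 to 0.19 for Lars2 and -0.024 to 0.013 for Nars2.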
